A study of Mus musculus with 40 samples.

Results

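The effect of the peptide IDR-1018 in the injured hemisphere of the neonatal mouse brain was measured with 10 arrays of the 40 in the series. They were chosen by their titles: 5 arrays of injured hemispheres from pups given IDR-1018 and 5 from pups given vehicle. Levels are log2 signals, so a difference of 1 is a doubling, and 19937 genes were tested. No gene was called, 0% of those tested, at a Benjamini-Hochberg adjusted p under 0.05 by limma. The values below therefore describe, gene by gene and with the error, how the injured hemispheres of treated pups compared with those of untreated pups.

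All pups were C57/Bl6 mice of postnatal day 9, and total RNA was extracted from frozen brain tissue. Both groups received lipopolysaccharide (LPS), a bacterial cell wall component, 4 h after the peptide or the vehicle. At 14 h after LPS the pups underwent hypoxia-ischaemia (HI). The brain was removed 6 h after that, the left hemisphere being the injured side and the right the uninjured side. The 10 uninjured arrays of the same design, 5 with peptide and 5 with vehicle, served as the background of each arm. In both arms the uninjured hemisphere had also been exposed to LPS, and no arm received HI without LPS. A further 20 arrays came from groups of 5 without HI, namely IDR-1018 or vehicle 10 h before removal, LPS 6 h before removal, and LPS 6 h before removal with IDR-1018 given 4 h ahead of the LPS. Neither the dose nor the number of pups is in the labels, nor whether hemispheres with the same number came from 1 pup. The spread that the p-values rest on is that among arrays and may be partly technical.

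IDR-1018 is a synthetic innate defence regulator, a short peptide derived from a bovine cathelicidin, bactenecin. Such peptides are known for changing how leukocytes respond to bacterial products rather than for killing bacteria alone. LPS given before HI sensitises the neonatal brain, so that a given hypoxic-ischaemic insult causes a larger lesion. In the hours after the insult, microglia and invading myeloid cells make chemokines and interleukin-1, injured cells induce stress transcription factors and heat shock proteins, and neuronal transcripts are lost. In RNA from whole hemispheres, fewer cells of a type and less RNA per cell cannot be told apart.

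The 10 injured arrays correlated with each other at between 0.990 and 0.998 over all genes (Pearson's r, as a description), and no array was a copy of another. Markers of brain tissue were high in both groups: the neuronal gene Rbfox3 averaged 10.97 ± 0.04 with peptide and 11.09 ± 0.01 without (SD, n = 5), and the astrocyte gene Aldh1l1 9.66 ± 0.06 and 9.57 ± 0.07. The leading principal component held 41.3% of the variance of the injured arrays and did not separate the groups, with scores from -18.7 to 20.4 with peptide and from -12.5 to 13.4 without. The highest scores were those of arrays 3 and 4 with peptide (20.4 and 19.6) and 5 and 3 without (13.4 and 10.1). Their mean ribosomal protein signal was 11.34 to 11.40, against 11.14 or below in the other injured arrays. The source of this shared variation was not tested. Xist, the transcript of the inactive X chromosome, and the Y-linked genes split the peptide arrays 3 to 2, with the Y-linked signal in arrays 3 and 4. Of the arrays without peptide, 3 had only Xist, array 4 had only the Y-linked genes, and array 3 had both, with Xist at 11.23 and Eif2s3y at 8.69, while the uninjured array of the same number had only Xist. The labels give no sex. Without that array limma again called 0 genes and 405 had an unadjusted p under 0.05, against 277 with it. Some medians without it are given beside their gene sets. Array 5 without peptide had Gabra6, a receptor subunit of cerebellar granule cells, at 7.09, against 4.60 to 4.91 in the other 4 arrays of its group, and array 4 with peptide had the lens crystallin Crygd at 7.31, against 3.55 to 3.74 in the rest of its group.

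The comparison of the injured hemispheres asked whether the peptide altered the response to LPS and HI. By limma, 277 genes had an unadjusted p under 0.05, 1.39% of those tested, where an even spread of p-values would place 997. Of these, 114 were higher and 163 lower with peptide, and the smallest p was 8.55e-04, with an adjusted p of 1.00. The distribution of p-values rose towards 1 rather than lying flat. The values of the groups did not overlap for 46 genes, 0.231% of those tested, of which 17 were higher and 29 lower with peptide. The median difference was 0.00, and 49.7% of genes lay above 0.

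**Figure D1:**
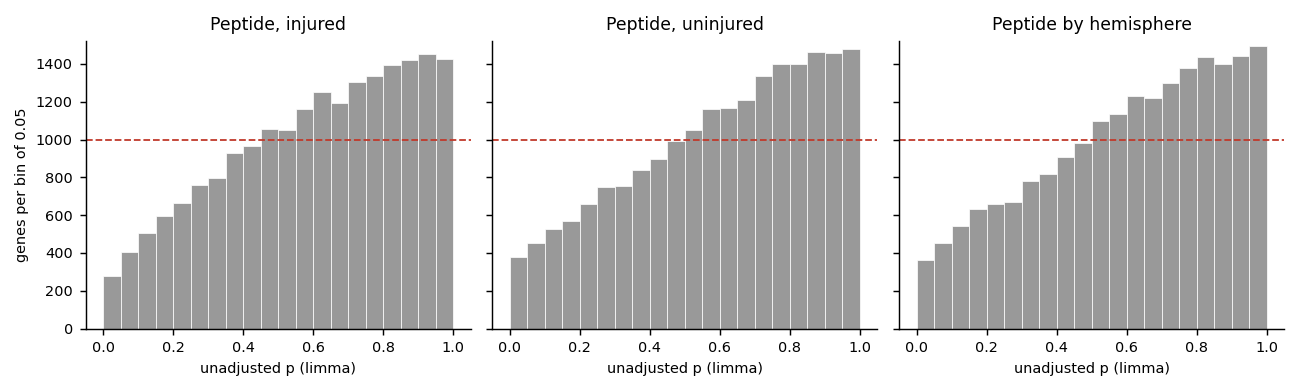
Histograms of unadjusted limma p-values (x axis) by number of genes in bins of 0.05 (y axis) for the peptide difference in the injured hemisphere, in the uninjured hemisphere and for the difference between hemispheres; the dashed line marks equal filling of all bins. In each panel the lowest bin is the emptiest, holding 277, 376 and 361 genes against the 997 of an even spread.

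The intervals show what sizes of difference in signal these arrays leave room for. The 95% interval of a gene's difference had a median half-width of 0.18 on the log2 scale. It lay wholly within 0.5 of 0 for 19634 genes (98.5%), a bound of 1.41-fold in either direction, and wholly within 1 of 0 for 19924 genes. These counts include genes of low signal, for which a narrow interval does not bound a change in the transcript. Only 6 genes differed by more than 0.5 in either direction. They were Xist (-1.08), the pituitary hormone gene Gh (0.65), Crygd (0.56), the chemokine gene Cxcl9 (-0.54), the glycine transporter gene Slc6a5 (-0.51) and the acute phase gene Saa3 (-0.50), named here after their values were seen. Gh was 6.50, 6.40, 6.58, 6.56 and 8.07 with peptide and 5.84, 6.30, 6.45, 6.22 and 6.03 without, with array 5 far above the other 4 peptide arrays, which lay between 6.40 and 6.58. For Crygd, array 4 with peptide was the only treated array above 3.74. Slc6a5 was 6.23, 6.14, 6.20, 5.81 and 6.10 in the peptide arrays and 6.94, 6.44, 6.95, 5.81 and 6.86 in the arrays without it, and the groups overlapped at array 4 of the group without peptide.

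The uninjured hemispheres gave the same count of calls. Between peptide and vehicle limma called 0 genes there; 376 (1.89%) had an unadjusted p under 0.05, and the groups did not overlap for 70 (0.351%). The difference between the hemispheres in the peptide effect, tested as an interaction over the 20 LPS/HI arrays, had 0 calls by limma and 361 unadjusted p-values under 0.05 (1.81%). Its intervals were wider, with a median half-width of 0.25, and lay within 0.5 of 0 for 91.1% of genes. The injury itself was readily seen on these arrays: injured against uninjured, averaged over both arms, called 2545 genes (12.8%), 1557 higher (7.81%) and 988 lower (4.96%). Within the arms, 827 genes were called without peptide (4.15%) and 837 with peptide (4.2%). The arms share no array, and 528 genes were called in both, 63.8% of the former and 63.1% of the latter, all 528 in the same direction. Of the remaining called genes, 288 called without peptide alone and 305 called with peptide alone had the same sign in the other arm. Same-numbered injured and uninjured arrays deviated together in most pairs, and least at numbers 4 and 5 with peptide (r of 0.09 for each). The labels name no pairs, and at number 3 without peptide only the injured array had Y-linked signal. Because of this shared deviation, peptide differences in the uninjured hemisphere, here and below, may not be an independent repeat of the injured ones. With same-numbered arrays treated as pairs, limma called 1720 genes without peptide and 1771 with it. Of these, 1105 were called in both arms and in the same direction, and 3943 genes were called averaged over the arms. The paired interaction had a median half-width of 0.21 and again 0 calls, with 634 unadjusted p-values under 0.05. Counts of list members called for injury below are from the unpaired fit.

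The 20 genes that injury raised most, chosen by the injury effect averaged over both arms and so not by the peptide difference, were led by chemokines, myeloid receptors and stress genes. Their median rise was 1.20 without peptide and 1.45 with it. The peptide difference among the injured arrays had a median of 0.05, with 14 of 20 above 0 and a range from -0.12 to 0.42. None was called (0%) and none had an unadjusted p under 0.05 by limma. For all 20, the 95% interval excluded a fall as large as the injury effect, and for all 20 also a fall of 50% of it. The median rested on array 2 with peptide, in which the set lay 0.68 above the mean of the untreated arrays, and it was -0.07 without that array. Without array 3 of the untreated group it was 0.01.

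Ccl3, a chemokine made by microglia and macrophages, was 11.01, 11.93, 10.66, 10.49 and 11.55 in the peptide arrays and 10.90, 10.87, 10.45, 11.31 and 11.17 in the arrays without it. The groups overlapped, and all 10 lay far above the uninjured range of 6.76 to 7.47. Its rise with injury was 3.83 without and 4.08 with peptide, and the peptide difference was 0.19 ± 0.24 (SE), with an interval from -0.33 to 0.71. Ccl2, which draws monocytes, was 7.78, 8.82, 7.71, 8.07 and 7.73 in the peptide arrays and 8.09, 8.04, 8.12, 7.80 and 7.97 in the arrays without it. Array 2 with peptide stood above the other 9, and the difference of the means was 0.02 ± 0.18 (SE). The neighbouring chemokine genes Ccl9 and Ccl6 differed by 0.05 (interval -0.25 to 0.35) and -0.05 (-0.40 to 0.31).

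Atf3, a stress-induced transcription factor of the activating transcription factor family, was 8.02, 9.31, 8.21, 7.97 and 9.05 in the peptide arrays and 8.52, 8.56, 8.10, 8.69 and 8.40 in the arrays without it. The peptide arrays split into arrays 2 and 5, at 9.05 or above, and the other 3, at 8.21 or below, with 4 of the 5 untreated arrays in between. The means differed by 0.06 ± 0.23 (SE). Its upstream 250 bases are shown with those of Fos because both hold the core of the cAMP response element, TGACGT, which is the cognate element of this factor family. The sequences are RefSeq promoters of GRCm38.p6, 5′ to 3′ on the gene's strand, with the motif in capitals (searched on both strands). Atf3 lies at chr1:191183334-191183583, minus strand, and Fos at chr12:85473640-85473889, plus strand.
Atf3: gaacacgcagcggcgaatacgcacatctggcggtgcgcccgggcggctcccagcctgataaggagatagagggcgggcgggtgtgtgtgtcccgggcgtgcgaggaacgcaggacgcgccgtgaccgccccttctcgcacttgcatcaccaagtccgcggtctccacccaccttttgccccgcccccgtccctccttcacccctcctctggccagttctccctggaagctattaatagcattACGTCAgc
Fos: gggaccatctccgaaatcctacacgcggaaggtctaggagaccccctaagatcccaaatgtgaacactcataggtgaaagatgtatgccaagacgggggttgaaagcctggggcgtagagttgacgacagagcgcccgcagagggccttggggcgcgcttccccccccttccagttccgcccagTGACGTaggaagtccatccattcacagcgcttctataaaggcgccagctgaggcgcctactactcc
The core occurs in 2125 of 32851 mouse promoter windows of 250 bases (6.47%). A match describes the letters and does not show binding.

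Hspa1a, an inducible heat shock protein of the Hsp70 family, varied widely within both groups, with an SD of 1.10 with peptide and 0.79 without (n = 5). It was 10.48, 10.81, 8.54, 8.90 and 10.80 in the peptide arrays and 10.61, 9.45, 8.58, 9.70 and 10.31 in the arrays without it. In both groups array 3 was lowest, and peptide arrays 3 and 4 lay below 9 where the other 3 lay above 10. The uninjured range was 7.75 to 8.08, so even the lowest injured arrays lay above it. The peptide difference of 0.18 ± 0.47 (SE) had an interval from -0.83 to 1.19. The probe set may also measure the near-identical neighbour Hspa1b. Its upstream 250 bases at chr17:34972157-34972406, minus strand, are shown for the inverted pair of heat shock elements that precedes the start, GAANNTTC, in capitals.
Hspa1a: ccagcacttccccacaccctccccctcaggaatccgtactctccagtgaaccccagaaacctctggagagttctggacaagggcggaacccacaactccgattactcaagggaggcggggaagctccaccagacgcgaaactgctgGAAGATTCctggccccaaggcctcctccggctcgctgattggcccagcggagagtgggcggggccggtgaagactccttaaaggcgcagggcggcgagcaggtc
This pair, searched on both strands, occurs in 2199 of the 32851 promoter windows (6.69%).

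Receptors, most of them of myeloid cells, made up another group of these genes. Cd14, the LPS co-receptor, was 7.68, 8.84, 7.28, 7.61 and 8.05 in the peptide arrays and 7.74, 7.34, 7.30, 7.59 and 8.14 in the arrays without it. Its rise with injury was 1.20 without and 1.52 with peptide, and the interaction had an interval from -0.30 to 0.93. Lilrb4a, an inhibitory immunoglobulin-like receptor, was 7.55, 8.28, 7.70, 7.58 and 7.68 in the peptide arrays and 7.79, 7.94, 7.59, 7.71 and 7.51 in the arrays without it, and again array 2 with peptide was highest. Its difference was 0.05, and that of its close paralogue Lilr4b 0.33 (-0.29 to 0.95); probes of the pair may share targets. The complement receptor gene C3ar1 differed by -0.06 (-0.39 to 0.26), the fatty acid receptor gene Gpr84 by -0.12 (-0.37 to 0.14) and the oncostatin M receptor gene Osmr by -0.02 (-0.30 to 0.26).

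The remaining genes of this set included Emp1, a tetraspan membrane protein, at 9.63, 9.48, 9.42, 8.93 and 9.50 in the peptide arrays and 9.60, 9.55, 9.15, 9.51 and 9.37 in the arrays without it. Its difference was -0.04 ± 0.12 (SE). Gadd45b, a growth arrest and stress gene, differed by -0.04 (-0.48 to 0.41), and the haem-degrading enzyme gene Hmox1 by 0.03 (-0.19 to 0.26). Il1a, which encodes interleukin-1 alpha, was 6.55, 8.45, 6.50, 6.77 and 7.67 in the peptide arrays and 6.74, 7.45, 6.78, 6.60 and 6.97 in the arrays without it, a difference of 0.28 (-0.40 to 0.97). The largest difference of the 20 was that of Ccn1, a matricellular protein gene, at 0.42 (-0.48 to 1.32), with peptide arrays 2 and 5 at 10.54 and 9.85 and the other 3 between 8.06 and 8.79. Treated and untreated arrays overlapped in all 20 genes, as the plot of levels by array shows for Ccl3, Atf3, Cd14 and Cxcl10.

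**Figure D2:**
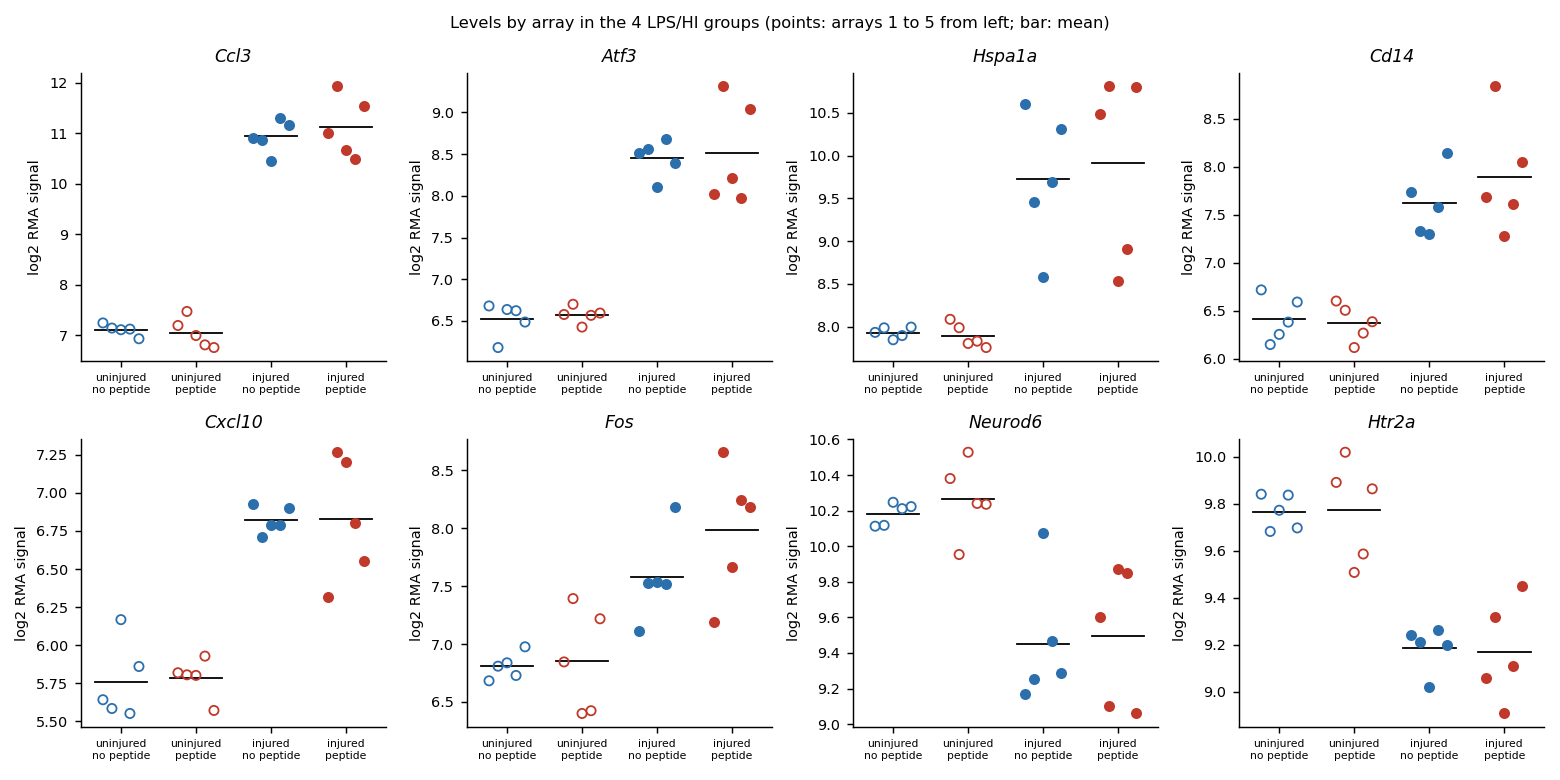
Log2 RMA signal (y axis) of 8 genes in the 4 LPS/HI groups (x axis); each point is 1 array, numbered 1 to 5 from the left, and each bar is the group mean. For Ccl3 all 10 injured arrays sit at 10.45 or above and all 10 uninjured arrays at 7.47 or below, and in every panel the injured arrays with and without peptide overlap.

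The 20 genes that injury lowered most included Neurod6, Htr2a and Kcnv1 of neurons and Dio2 and Car4, found in astrocytes and endothelium. Their median injury effect was -0.51 without peptide and -0.56 with it. The peptide difference had a median of 0.01, with 11 of 20 above 0 and a range from -0.14 to 0.18, and none was called or had an unadjusted p under 0.05 by limma. All 20 intervals excluded a gain as large as the injury loss, and 14 of 20 excluded a gain of 50% of it. Leaving out single arrays moved the median between -0.05 and 0.04, and without array 3 of the untreated group it was -0.02.

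Neurod6, a transcription factor of cortical projection neurons, was 9.60, 9.10, 9.87, 9.85 and 9.06 in the peptide arrays and 9.17, 9.25, 10.07, 9.47 and 9.28 in the arrays without it. Its uninjured range was 9.95 to 10.53, and the lowest injured arrays were 5 and 2 with peptide and 1 without. The injury effect was -0.73 without and -0.77 with peptide. Htr2a, the serotonin 2A receptor gene, was 9.06, 9.32, 8.91, 9.11 and 9.45 in the peptide arrays and 9.24, 9.21, 9.02, 9.26 and 9.20 in the arrays without it, all below the uninjured range of 9.51 to 10.02. Its difference was -0.02 ± 0.10 (SE), with an interval from -0.23 to 0.19. The largest difference among the 20 was a gain in Pcdh20, a protocadherin gene, at 0.18 ± 0.10 (SE). It was 7.97, 8.06, 7.70, 7.76 and 8.16 in the peptide arrays and 7.99, 7.65, 7.74, 7.78 and 7.62 in the arrays without it, and its interval of -0.04 to 0.39 included 0.

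Dio2, the enzyme that activates thyroid hormone in astrocytes, differed by 0.06 (-0.26 to 0.38), and Car4, an endothelial carbonic anhydrase gene, by 0.01 (-0.30 to 0.32). The potassium channel subunit gene Kcnv1 differed by 0.04 (-0.13 to 0.21), the secreted neuronal protein gene Tafa1 by 0.07 (-0.11 to 0.24), the heparan sulphate sulphotransferase gene Hs3st5 by 0.03 (-0.12 to 0.18) and the synapse gene Syndig1 by -0.09 (-0.25 to 0.07). The set also held the locus of the neuronal microRNA miR-128. Its mature 3p strand in RefSeq (GRCm38.p6, chr1:128202404-128202424, plus strand) is shown with the seed, bases 2 to 8, in capitals.
mmu-miR-128-3p: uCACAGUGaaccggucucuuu
The probe set named Mir128-1 was 7.72, 7.98, 7.56, 7.59 and 8.04 in the peptide arrays and 7.81, 8.15, 7.66, 7.74 and 7.56 in the arrays without it, a difference of -0.01 (-0.26 to 0.25). The annotation of that probe set names no arm.

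**Figure D3:**
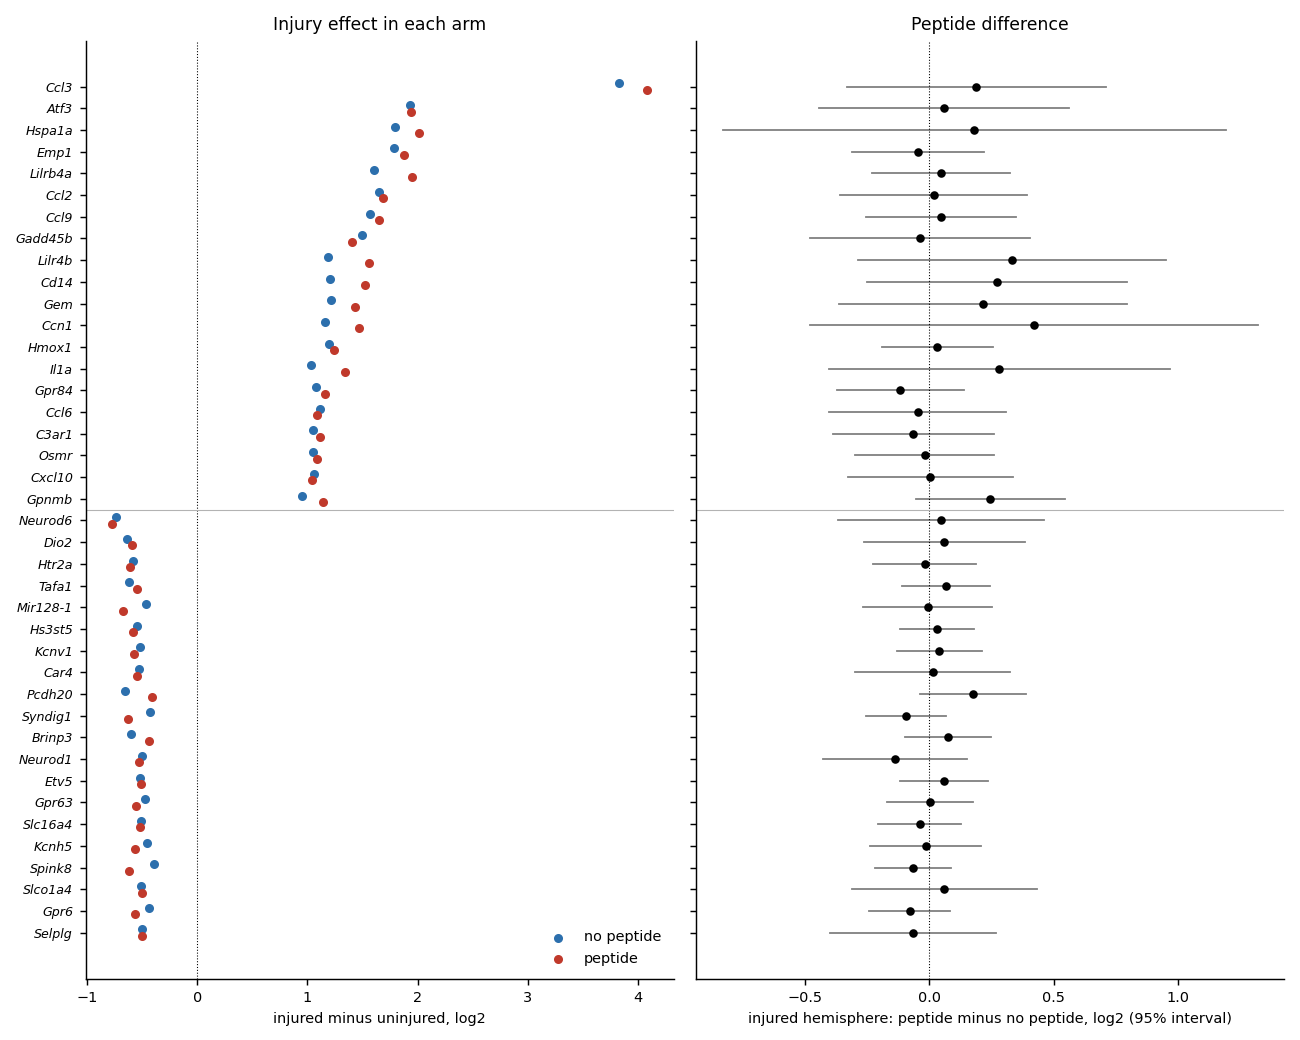
The 20 genes highest and the 20 lowest after injury (rows). Left, injured minus uninjured on the log2 scale without peptide (blue) and with peptide (red); right, peptide minus no peptide among the injured arrays with 95% intervals. The points of each gene on the left run from 3.83 and 4.08 for Ccl3 to -0.50 and -0.50 for Selplg, and all 40 intervals on the right cross 0.

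The gene lists covered 708 measured genes in 49 lists of pathways and cell types. None of the 708 was called (0% of all genes), 20 had an unadjusted p under 0.05 by limma, against 1.39% of all genes, and 4 had groups that did not overlap, against 0.231% of all genes. The list medians ran from -0.14 to 0.16, and 30 of 49 were above 0.

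Among innate immune genes, the 21 chemokine ligands had a median difference of 0.01, with 12 above 0, and -0.04 without array 3 of the untreated group. The injury effect called 11 of them higher and 1 lower, against 7.81% and 4.96% of all genes. Those with the smallest p were lower with peptide and not past the threshold. Ccl17, a T cell chemokine, was 8.01, 8.10, 8.35, 8.13 and 7.83 in the peptide arrays and 8.24, 8.51, 8.41, 8.18 and 8.73 in the arrays without it, a difference of -0.33 ± 0.11 (SE). Cxcl9, an interferon-gamma target, was 6.06, 6.46, 6.42, 6.12 and 6.30 in the peptide arrays and 7.58, 6.32, 7.06, 6.42 and 6.67 in the arrays without it. Arrays 1 and 3 without peptide were the highest, and the difference was -0.54 ± 0.19 (SE), with -0.53 in the uninjured hemisphere. Cxcl10, raised both by LPS and by injury, was 6.31, 7.27, 7.20, 6.80 and 6.55 in the peptide arrays and 6.92, 6.71, 6.79, 6.79 and 6.90 in the arrays without it, a difference of 0.01 ± 0.15 (SE). Its untreated arrays spanned 6.71 to 6.92 and its treated arrays 6.31 to 7.27. Its upstream 250 bases (GRCm38.p6, chr5:92348890-92349139, minus strand) are shown for the interferon-stimulated response element, searched as GAAANNGAAA on both strands and set in capitals.
Cxcl10: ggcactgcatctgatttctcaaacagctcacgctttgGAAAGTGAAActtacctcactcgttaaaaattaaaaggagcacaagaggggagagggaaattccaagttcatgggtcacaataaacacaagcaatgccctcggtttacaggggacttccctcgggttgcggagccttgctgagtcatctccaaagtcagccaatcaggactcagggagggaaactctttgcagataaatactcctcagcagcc
This element occurs in 978 of the 32851 promoter windows (2.98%).

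The 19 cytokine ligands had a median of 0.03, and injury called 7 of them higher, against 7.81% of all genes. Il6, the gene of interleukin-6, was 3.61, 4.21, 3.13, 3.48 and 3.69 in the peptide arrays and 3.24, 3.46, 3.06, 3.21 and 3.16 in the arrays without it. The difference was 0.40 ± 0.15 (SE) at signals near the low end of the array. Il11 differed by -0.19 and Tnf, the tumour necrosis factor gene, by 0.24 ± 0.11 (SE). Tnf was 5.96, 6.60, 6.43, 6.08 and 6.01 in the peptide arrays and 5.92, 5.96, 5.86, 6.03 and 6.10 in the arrays without it, with peptide arrays 2 and 3 highest. The 17 cytokine receptors and feedback genes had a median of 0.04, with Socs3, the feedback inhibitor of interleukin-6 signalling, at 0.13 (-0.15 to 0.41). Of the 9 genes of the inflammasome and interleukin-1 processing, none was past the threshold. Pycard, the adaptor of the inflammasome, and Casp4, the caspase that senses intracellular LPS, differed by -0.11 (-0.27 to 0.05) and -0.12 (-0.34 to 0.10). The list median was 0.01, and -0.09 without array 2 with peptide.

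The 18 genes of Toll-like receptor signalling had a median of -0.01. Tlr6, which pairs with Tlr2 to sense bacterial lipopeptides, was 5.27, 5.18, 5.12, 5.17 and 5.15 in the peptide arrays and 5.38, 5.55, 5.34, 5.40 and 5.35 in the arrays without it. Every treated array lay below every untreated array, with all values below 6, the level of the low-signal filter. The difference was -0.23 ± 0.06 (SE), with an unadjusted p of 0.0032 and an adjusted p of 1.00 by limma, and it was -0.01 in the uninjured hemisphere. Lbp, the LPS-binding protein gene, differed by 0.19 (-0.03 to 0.41). The 16 NF-kB subunits and feedback genes had a median of 0.02, with Nfkbiz, a nuclear co-regulator of NF-kB targets, at 0.19 (-0.08 to 0.46). Injury called 7 of the Toll-like receptor genes and 8 of the NF-kB genes higher, against 7.81% of all genes.

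Interferon-response genes lay mostly below 0. Their median was -0.07, 7 of 25 were above 0, and 1 had an unadjusted p under 0.05 by limma (1.39% of all genes). The median was -0.19 in the uninjured hemisphere. Gbp3, an interferon-induced GTPase gene, was 7.25, 7.16, 7.37, 6.89 and 7.21 in the peptide arrays and 7.70, 7.34, 7.41, 7.31 and 7.45 in the arrays without it, a difference of -0.26 ± 0.10 (SE). Array 4 with peptide was the lowest of all 10. Oas1a, an antiviral synthetase gene, differed by -0.21 (-0.44 to 0.02). The 13 genes of antigen presentation had a median of -0.07, with 3 above 0; H2-Aa, a class II chain gene, differed by -0.27 (-0.58 to 0.04) and Tap1, the peptide transporter gene, by -0.17 (-0.35 to 0.02). Among 14 complement genes (median -0.04) Cfb, factor B of the alternative pathway, differed by -0.20 ± 0.08 (SE) and C5ar1, a receptor of neutrophils and microglia, by 0.19 (-0.08 to 0.45). Among 14 acute phase genes (median 0.01) Saa3, serum amyloid A3, was 6.68, 7.01, 6.79, 6.46 and 6.49 in the peptide arrays and 7.34, 7.17, 7.56, 6.38 and 7.50 in the arrays without it. Array 4 without peptide was the lowest of all 10 and the other 4 of its group the highest, and the difference was -0.50 ± 0.19 (SE), with -0.69 in the uninjured hemisphere. Among 10 prostaglandin genes (median -0.02) Ptgs2, cyclooxygenase-2, was 7.83, 9.21, 7.62, 7.57 and 8.66 in the peptide arrays and 7.82, 7.89, 7.56, 8.01 and 8.23 in the arrays without it, a difference of 0.28 (-0.30 to 0.85).

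The genes most responsive to LPS without HI were chosen on the 20 arrays without HI, from the LPS effect averaged over both arms there. Of the 20 highest, 17 lay below 0 in the injured peptide comparison, with a median of -0.14 against 0.00 over all genes. None was called and 3 had an unadjusted p under 0.05 by limma, against 1.39% of all genes. The median was -0.27 in the uninjured hemisphere and 0.12 between the arrays with and without peptide at 6 h after LPS. Leaving out single arrays moved it from -0.21 to -0.05, the latter without array 4 with peptide, in which the set lay at -0.50 against the mean of the untreated arrays. For the 50 highest it was -0.07. Lcn2, which encodes the iron-sequestering protein lipocalin-2, was 8.20, 8.79, 9.00, 8.86 and 8.46 in the peptide arrays and 8.73, 8.19, 9.33, 8.28 and 9.18 in the arrays without it, a difference of -0.08 ± 0.22 (SE). The interferon-induced GTPase genes Iigp1, Irgm1 and Gbp4 differed by -0.21, -0.19 and -0.06, and Ifit3, an antiviral gene, by 0.01. For Ifit3 array 4 with peptide, at 7.55, was the lowest of all 10, and the other 9 lay between 7.75 and 8.48.

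Immediate early genes, the transcription factors that cells induce within minutes of a stimulus, had the highest median of the lists at 0.16, with 20 of 23 above 0. None was past the threshold, and none had an unadjusted p under 0.05 by limma. In the uninjured hemisphere the list median was 0.07, with 21 of 23 above 0. Fos was 7.19, 8.66, 7.67, 8.24 and 8.18 in the peptide arrays and 7.11, 7.53, 7.54, 7.52 and 8.19 in the arrays without it. The difference was 0.41 ± 0.24 (SE), and its rise with injury was 0.77 without and 1.13 with peptide. Egr2 was 7.03, 8.37, 7.16, 7.38 and 7.33 in the peptide arrays and 6.88, 7.33, 7.01, 7.02 and 7.16 in the arrays without it, a difference of 0.37 ± 0.20 (SE); the difference was 0.21 for Nr4a3 and 0.16 for Egr4.

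Within each group a single array held much of the signal. Array 2 was the highest of the peptide arrays for 17 of 23 genes, and array 5 was the highest of the untreated arrays for 15 of 23. The list lay at -0.21, 0.53, 0.01, 0.07 and 0.34 in the 5 peptide arrays relative to the untreated mean, so treated arrays lay on both sides of it. The median was 0.07 without array 2 with peptide and 0.23 without array 5 of the untreated group. It was 0.13 without array 3 of the untreated group. The 12 MAPK phosphatases and feedback inhibitors, which immediate early signalling induces, had a median of 0.07, with 10 above 0. Spry4 differed by 0.10 and Dusp5 by 0.10.

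The 11 heat shock genes had a median of 0.00. Injury called 7 of them higher, against 7.81% of all genes. Cryab, a small heat shock protein of glia, was 9.76, 9.78, 9.81, 9.75 and 9.83 in the peptide arrays and 9.89, 9.89, 9.96, 9.88 and 10.15 in the arrays without it, with no overlap. The difference was -0.17 ± 0.07 (SE). The 17 genes of the unfolded protein and integrated stress responses had a median of 0.02; Ddit3, the pro-apoptotic factor CHOP, differed by -0.11 (-0.27 to 0.05) and Ddit4, a stress-induced inhibitor of mTORC1, by 0.13 (-0.02 to 0.27). The 15 p53 targets had a median of 0.00 and the 18 apoptosis and necroptosis genes 0.01. The death receptor genes Tnfrsf10b and Fas differed by 0.18 and 0.14.

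The 18 hypoxia-response genes had a median of 0.05, with 16 above 0, and none had an unadjusted p under 0.05. Vegfa, the vascular growth factor gene, was 9.66, 9.92, 9.72, 9.92 and 9.82 in the peptide arrays and 9.66, 9.67, 9.63, 9.65 and 9.94 in the arrays without it, a difference of 0.10 ± 0.08 (SE). Array 5 without peptide was the highest of all 10, while the other 4 of its group lay between 9.63 and 9.67. All 12 growth and trophic factor genes lay above 0, at a median of 0.06 and a highest value of 0.13 (Igfbp3, a binding protein of insulin-like growth factors). The 16 angiogenesis genes had a median of 0.11, with 13 above 0, and 0.07 without array 3 of the untreated group; Apold1, an endothelial early-response gene, was 7.81, 8.78, 7.94, 8.20 and 8.37 in the peptide arrays and 7.59, 8.17, 7.68, 7.85 and 8.32 in the arrays without it, a difference of 0.30 ± 0.18 (SE). The 11 endothelial adhesion genes had a median of 0.04, or 0.0050 without that untreated array, with Icam1, which binds leukocytes, at 0.15 (-0.12 to 0.42). Among 17 protease genes (median 0.05), Adamts1, a secreted metalloprotease gene, was 7.95, 8.98, 7.75, 7.88 and 8.53 in the peptide arrays and 7.86, 7.99, 7.60, 8.01 and 8.29 in the arrays without it, a difference of 0.27 (-0.18 to 0.71). Array 2 with peptide was the highest of all 10 for Apold1, Icam1 and Adamts1.

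The 20 extracellular matrix genes had a median of 0.01, with Tnc, tenascin C, at -0.17 ± 0.07 (SE) and Col3a1, a fibrillar collagen gene, at -0.07 (-0.22 to 0.07). The 16 NRF2 antioxidant genes had a median of 0.02 and the 14 glucocorticoid-response genes 0.07, and the differences were 0.10 for Nqo1 and 0.13 for Zbtb16. The 15 cholesterol synthesis genes, of which injury called 5 lower (4.96% of all genes), had a median of 0.04. Idi1, an isoprenoid isomerase gene, differed by 0.20 (-0.03 to 0.43). The 15 circadian genes had a median of -0.01, and Bhlhe40, a clock repressor also induced by stress, was 8.31, 8.75, 8.30, 8.46 and 8.55 in the peptide arrays and 8.28, 8.18, 8.16, 8.26 and 8.35 in the arrays without it, a difference of 0.23 ± 0.09 (SE). The ribosomal protein, proteasome and respiratory chain lists had medians of 0.01, 0.00 and 0.01.

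Cell cycle genes had the lowest median of the lists at -0.14, with 22 of 23 below 0 and 4 at an unadjusted p under 0.05 by limma, 1 of which was higher, against 1.39% of all genes at that threshold. The median was -0.15 in the uninjured hemisphere, also with 22 of 23 below 0. Injury called none of the 23, against 12.8% of all genes. Cenpe, a kinetochore motor gene, was 6.23, 6.07, 5.93, 6.11 and 6.14 in the peptide arrays and 6.48, 5.94, 6.57, 6.54 and 6.35 in the arrays without it. Array 2 without peptide lay among the treated arrays, and the difference was -0.28 ± 0.11 (SE). Ube2c, a ubiquitin-conjugating enzyme of mitotic exit, and Bub1b, a spindle checkpoint kinase, differed by -0.22 and -0.19. Pcna, the sliding clamp of DNA replication, went the other way. It was 10.57, 10.78, 10.54, 10.71 and 10.45 in the peptide arrays and 10.48, 10.08, 10.47, 10.17 and 10.48 in the arrays without it, a difference of 0.27 ± 0.10 (SE). Array 2 was the lowest untreated array for 17 of 23 genes, and the median was -0.19 without it, -0.14 without untreated array 3, and between -0.19 and -0.11 over all single arrays left out.

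**Figure D4:**
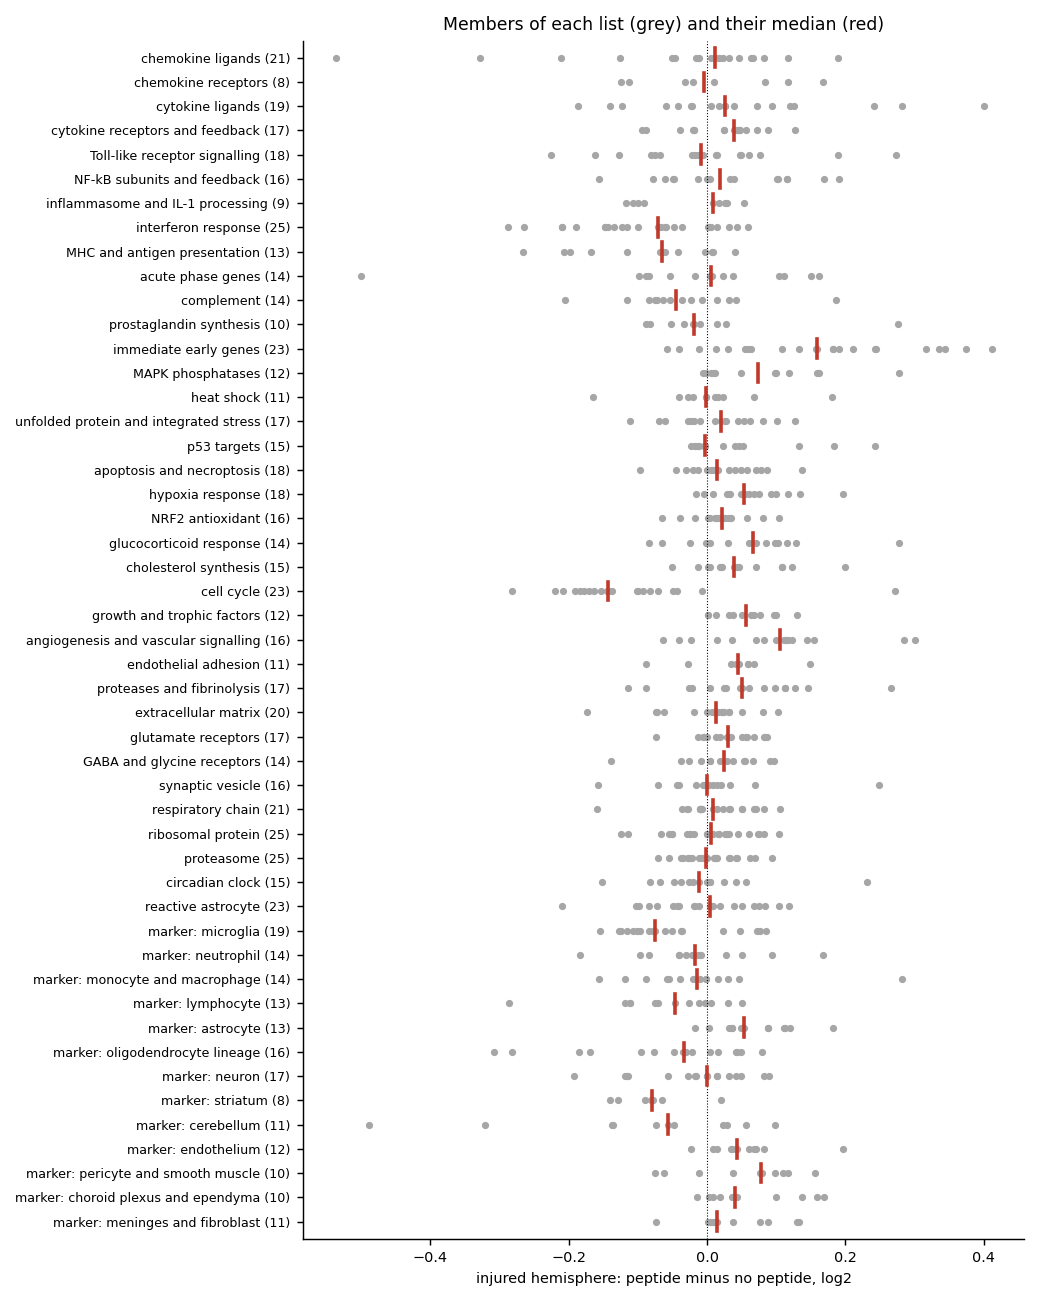
Peptide minus no peptide in the injured hemisphere on the log2 scale (x axis) for each measured member (grey) of the 49 lists (rows, with the number of members) and their median (red). The medians lie between -0.14, for the cell cycle, and 0.16, for immediate early genes.

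The medians of the neuronal lists lay between -0.08 and 0.03. The 17 glutamate receptor genes, of which injury called 10 lower, had a median of 0.03. The median of the 14 GABA and glycine receptor genes, 4 of them lower with injury, was 0.02. Of all genes, injury called 4.96% lower. Grin3a and Grik2, glutamate receptor subunits, differed by 0.09 (-0.06 to 0.24) and 0.08 (-0.05 to 0.22). Of 16 synaptic vesicle genes, Slc17a6, the vesicular glutamate transporter of the thalamus and brainstem, was 10.89, 10.86, 10.52, 10.49 and 10.89 in the peptide arrays and 10.57, 10.64, 10.30, 10.56 and 10.34 in the arrays without it, a difference of 0.25 ± 0.10 (SE); it was -0.28 in the uninjured hemisphere. The 17 neuron markers had a median of 0.00. Rbfox3 did not overlap between the groups, at 10.98, 10.93, 11.02, 11.00 and 10.92 in the peptide arrays and 11.10, 11.09, 11.08, 11.09 and 11.07 in the arrays without it, a difference of -0.12 ± 0.05 (SE). The 8 striatal markers, of which injury called 6 lower (4.96% of all genes), had a median of -0.08. Drd1, the D1 dopamine receptor, differed by -0.14 (-0.32 to 0.03) and the phosphodiesterase gene Pde10a by -0.09 (-0.22 to 0.04).

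Among glial and vascular markers, 12 of 13 astrocyte genes lay above 0 (median 0.05) and 5 of 19 microglial genes (median -0.08). The astrocyte list lay at 0.03, 0.28, -0.11, -0.08 and 0.16 in the peptide arrays relative to the untreated mean. Its median ran from -0.01 to 0.09 over the alternatives, and that of the microglial list from -0.11 to -0.01. In the uninjured hemisphere 6 of 13 astrocyte and 7 of 19 microglial genes lay above 0. Aif1, a microglial and macrophage marker, was 6.33, 6.27, 6.27, 6.35 and 6.46 in the peptide arrays and 6.59, 6.45, 6.55, 6.41 and 6.44 in the arrays without it, a difference of -0.15 ± 0.07 (SE), and Cx3cr1, the fractalkine receptor of microglia, differed by -0.12 (-0.29 to 0.05). The 23 reactive astrocyte genes, 17 of which injury called higher (7.81% of all genes), had a median of 0.00, with Tm4sf1 at 0.12 (-0.10 to 0.33). The 16 oligodendrocyte lineage markers had a median of -0.03, with 6 above 0 and a lowest value of -0.31. Myelin genes varied widely within each group: Mag, a myelin glycoprotein gene, was 8.89, 10.21, 8.60, 8.33 and 9.95 in the peptide arrays and 9.78, 9.50, 9.03, 9.19 and 10.03 in the arrays without it, a difference of -0.31 (-1.01 to 0.39). Peptide arrays 3 and 4 were the lowest of the 10. Mbp, myelin basic protein, differed by -0.19 (-0.58 to 0.21) and Cspg4, a marker of oligodendrocyte precursors, by 0.08 (-0.07 to 0.23). The 14 neutrophil and 14 monocyte markers had medians of -0.02 and -0.01, each with 4 above 0. The 13 lymphocyte markers, 3 of them above 0, had a median of -0.05, or -0.10 without array 3 of the untreated group. Chil3, a chitinase-like gene of myeloid cells, was 3.81, 3.71, 3.78, 3.25 and 3.51 in the peptide arrays and 3.28, 3.36, 3.47, 3.25 and 3.29 in the arrays without it. The difference was 0.28 ± 0.10 (SE), the highest of the monocyte list, at signals near the low end of the array. The cytotoxic granule gene Gzma differed by -0.11 (-0.26 to 0.03). The neutrophil gene Ly6g was between 4.40 and 5.00 in all 10 arrays. Endothelial (11 of 12 above 0, median 0.04) and mural cell markers (7 of 10, median 0.08) held no gene past the threshold. The endothelial median ran from -0.0033 to 0.094 over the alternatives. Acta2, smooth muscle actin, differed by 0.16 ± 0.07 (SE). The lists of choroid plexus (9 of 10 above 0, median 0.04), meningeal and fibroblast genes (10 of 11, median 0.01) and chemokine receptors (4 of 8, median 0.00) held none either.

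The 10 genes with the smallest p in each direction are described as the extremes of the comparison, none being past the threshold. Of the 10 lower with peptide, Barhl1, a homeobox gene of cerebellar granule cells and other neurons, led. It was 6.56, 6.39, 6.62, 6.61 and 6.41 in the peptide arrays and 6.91, 6.85, 6.72, 6.73 and 6.98 in the arrays without it, with no overlap, a difference of -0.32 ± 0.08 (SE) at an unadjusted p of 0.00085 (adjusted p = 1.00 by limma). In the uninjured hemisphere the difference was -0.06. The 11 cerebellar markers as a list had a median of -0.06, with 4 above 0 and the lowest value, -0.49, in Gabra6, which was -0.02 without array 5 of the untreated group; the part of cerebellar tissue in the values of Barhl1 was not tested. Bcl2a1c, an anti-apoptotic gene of a family of near-identical copies, was 4.88, 4.79, 4.63, 4.66 and 4.63 in the peptide arrays and 5.03, 4.94, 4.91, 5.04 and 5.02 in the arrays without it, a difference of -0.27 ± 0.07 (SE); the uninjured difference was -0.20. Ifi213, an interferon-inducible gene of the Ifi200 family, was 5.06, 5.33, 5.11, 5.08 and 5.23 in the peptide arrays and 5.57, 5.39, 5.27, 5.77 and 5.65 in the arrays without it, a difference of -0.37 ± 0.10 (SE) against 0.06 in the uninjured hemisphere. Cd4 was 6.25, 6.10, 6.10, 6.18 and 6.45 in the peptide arrays and 6.35, 6.50, 6.41, 6.66 and 6.57 in the arrays without it, a difference of -0.29 ± 0.08 (SE). The others were Tlr6, the pseudogene Tyms-ps, Ccdc54, AW112010, the kinase gene Alpk3 and Aspm, a spindle gene of neural progenitors, with differences between -0.34 and -0.20.

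Of the 10 higher with peptide, Asb4, a ubiquitin ligase adaptor with high levels in the hypothalamus, was 7.36, 7.69, 7.64, 7.35 and 7.75 in the peptide arrays and 7.32, 7.24, 7.23, 7.24 and 7.20 in the arrays without it, with no overlap. The difference was 0.31 ± 0.08 (SE). In the uninjured hemisphere it had the opposite sign, -0.37, and the interaction of 0.68 had an interval from 0.36 to 1.00 and an adjusted p of 1.00 by limma. That interaction contains the injured difference by which Asb4 was chosen, so its unadjusted interval gives no separate support for a difference between hemispheres. Irs4, an insulin receptor substrate also found in the hypothalamus, was 8.18, 8.24, 8.27, 8.07 and 8.53 in the peptide arrays and 8.14, 7.90, 7.86, 8.06 and 7.76 in the arrays without it. It differed by 0.31 ± 0.10 (SE), against -0.31 in the uninjured hemisphere. Kcne3, a potassium channel subunit gene, was 5.37, 6.07, 5.87, 5.88 and 5.94 in the peptide arrays and 5.33, 5.40, 5.28, 5.26 and 5.89 in the arrays without it, a difference of 0.39 ± 0.14 (SE). Array 1 with peptide and array 5 without were each apart from their group. Ebi3, a subunit of interleukin-27 and interleukin-35, differed by 0.21 ± 0.07 (SE) with no overlap. The rest were Bdh2, Gpr143, Ly6g2, Cabp4, Rnf138rt1 and S100a3, between 0.18 and 0.32. None of the 20 changed sign in any of its alternative analyses, 21 for 11 genes and 20 for the 9 genes that the low-signal filter left out. The genes were chosen by their small p in this comparison, which made a change of sign unlikely beforehand. The absence of such changes therefore gives no support to their direction. The same choice favoured genes whose groups did not overlap, so the lack of overlap gives none either.

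The same 20 genes were read in the arrays without HI, which share no array with the injured comparison. Between the peptide alone, given 10 h before removal, and vehicle no gene passed the limma threshold (0 calls), and 321 unadjusted p-values (1.61%) were under 0.05. The differences of Barhl1, Tlr6 and Asb4 were -0.04, -0.10 and -0.05. Before LPS, with removal at 6 h, the peptide comparison had 0 calls by limma and 2674 unadjusted p-values under 0.05 (13.4%). There the same genes differed by -0.17, -0.05 and 0.28. The group with LPS alone had Xist in all 5 arrays, whereas 3 of 5 arrays with peptide and LPS had Y-linked genes, and the part of this imbalance in that count was not tested.

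**Figure D5:**
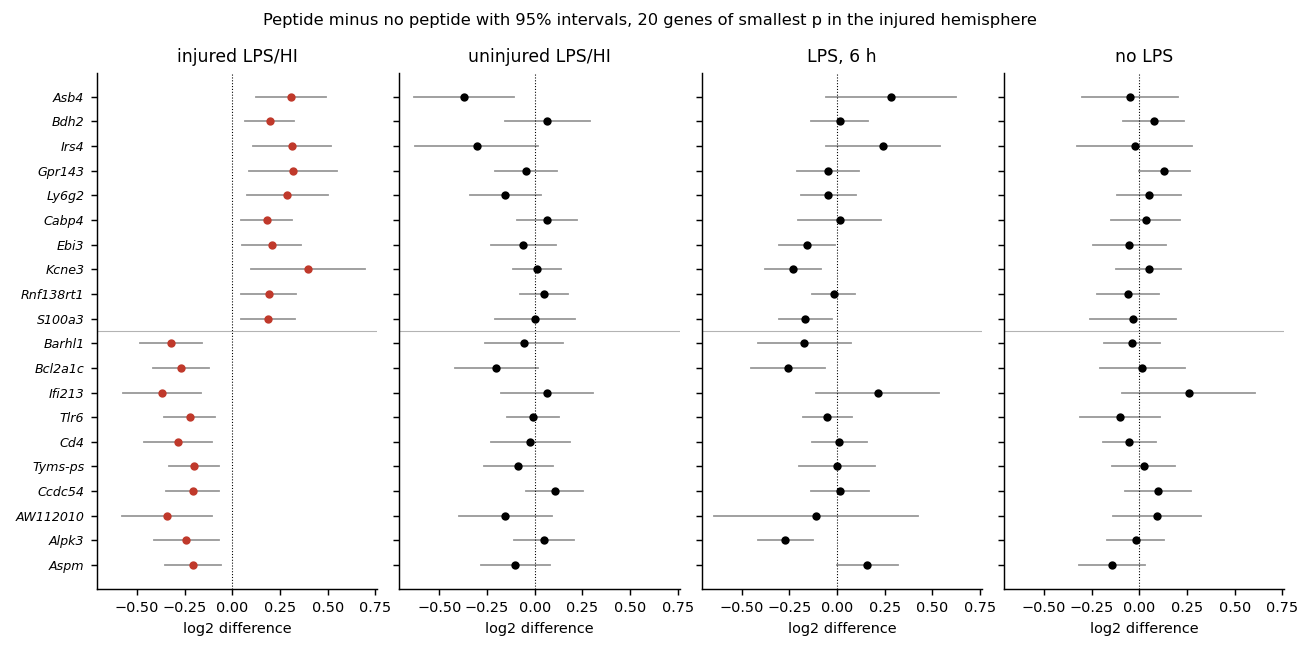
Peptide minus no peptide on the log2 scale (x axis) with 95% intervals for the 10 genes higher and the 10 lower with peptide at the smallest p in the injured hemisphere (rows), in the injured and uninjured LPS/HI hemispheres, at 6 h after LPS and without LPS. The injured panel was used to choose the genes; in the uninjured panel Asb4 lies at -0.37 and Irs4 at -0.31.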

How the data were processed

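Total RNA of 40 samples was measured on Affymetrix arrays, and the deposited table holds log2 values that the authors made with RMA in the affy package, per the submitters' processing notes; versions and genome build are not given in the sources used here. All values were used as deposited, and the number of arrays, 5 per group, limits the precision. Of 34760 probe sets, 21640 had 1 gene symbol, 1321 had several and 11799 had none; 21553 of those with 1 symbol matched a RefSeq gene ID. The probe set with the highest mean over 40 arrays stood for each of 19937 genes (954 had several). Groups were compared with limma 3.58.1 in R 4.3.3 (lmFit and eBayes), with Benjamini-Hochberg adjustment over all genes and a threshold of 0.05. The procedure was tested on simulated data. The noise there was drawn independently for each gene, so the simulation lacked the variation that genes share between real arrays. Deviations of same-numbered injured and uninjured arrays from their group means correlated at 0.39 to 0.65 over genes without peptide and at 0.09 to 0.59 with it, so paired fits of the injury effect were added.

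The groups and gene lists were chosen with earlier results of these data known. Named genes were the 10 of smallest p in each direction, passing over clone names, olfactory and vomeronasal receptors, Xist and Y-linked genes; the 10 highest and 10 lowest by the injury effect; the 5 highest by the LPS effect; and, from most lists, members among the 4 of smallest p. Other genes are examples chosen after their values were seen. Alternatives covered the arrays in the fit, the probe sets, a low-signal filter (mean log2 over 6), centring, array weights, covariates, a replicate block and arrays left out.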

Additional observations from a re-analysis of the deposited data

Results flagged for a closer look

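For each of the 137 genes named by rule, 1 set of 5 injured-hemisphere arrays per group was examined, 274 sets in all. Genes named after their values were seen, among them Gh and Crygd, were not examined. Of the 274 sets, 19 (6.93%) held an array farther from the other 4 than Dixon's 95% limit for 5 values (0.71 of the range). Chance alone gives about 1 in 20. Causes were not tested.

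Among the arrays without peptide, array 5 was apart in 6 genes. It was high for Kcne3 at 5.89, the feedback inhibitor gene Socs3 at 8.13, Vegfa at 9.94 and Gabra6 at 7.09, and low for the photoreceptor calcium-binding gene Cabp4 at 6.73 and Grin3a at 9.98. Array 3 was low for Htr2a at 9.02 and the neutrophil chemokine receptor gene Cxcr2 at 3.77, and high for the respiratory chain gene Ndufb3 at 8.23. Array 4 was high for Aspm at 6.69 and Kcnv1 at 10.09.

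Among the peptide arrays, array 2 was high for Lilrb4a at 8.28, Egr2 at 8.37, the signalling inhibitor gene Spry4 at 8.33 and the death receptor gene Tnfrsf10b at 6.80. Array 1 was high for the inflammasome adaptor gene Pycard at 7.54 and low for Ddit4 at 9.11. Array 3 was low for the endothelial gene Esm1 at 6.11 and high for the proteasome gene Psmc5 at 9.31.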

How the results depend on the processing

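By limma the injured comparison had 0 calls in all 21 alternatives, with 149 to 614 genes at an unadjusted p under 0.05 and 0.558 as the smallest adjusted p. The range was 222 to 405 with single arrays left out. The uninjured comparison and the interaction also had 0 calls in their 14 and 24 alternatives, with 141 to 724 and 152 to 634 such genes. With the replicate number as a block, the injured, uninjured and interaction fits had 0 calls and 268, 724 and 634 genes at an unadjusted p under 0.05. Calls for injury averaged over both arms ranged from 2166 to 3943, the highest with this block, which gave 1720 without peptide and 1771 with it; the block on injury was added after seeing the data. Same-numbered treated and untreated injured arrays deviated together unevenly (r from -0.17 to 0.46 over genes), so the numbers were not taken to pair treated with untreated arrays. Of 2853 values of named genes, 2852 moved by less than the spread between arrays, and 21 of 137 genes changed sign in at least 1 alternative. Several alternatives leave the difference itself unchanged, and leaving out 1 of 5 arrays can move it little against that spread. The count of 2852 could therefore hardly have come out otherwise and does not measure stability. The inflammasome and acute phase medians were -0.09 and -0.06 without array 2 with peptide, and the neuron marker median -0.05 without array 3 with peptide. Medians of the 20 genes highest after injury, lowest after injury and LPS-responsive ranged from -0.07 to 0.12, -0.05 to 0.04 and -0.21 to -0.05. With 5 arrays a group the median half-width of a gene's 95% interval was 0.18, and no difference, up to 0.65 in Gh and -1.08 in Xist, passed the adjusted threshold.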
